A study of Mus musculus with 8 samples.

Results

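Serum amyloid A and other acute phase proteins were followed in the livers of 8 male C57BL/6 mice, of which 4 carried 1 altered copy of Mtap (MTAP+/-, here heterozygous) and 4 carried none (MTAP+/+, here wild-type). The genes were chosen by name, with earlier results of these data known. They are Saa1, Saa2, Saa3, Saa4, Lcn2, Orm1, Orm2, Hp, Hpx and Apcs, 10 of the 18193 genes with a probe set of their own. They were read at every probe set whose platform annotation gives exactly 1 gene symbol and that symbol is one of the 10, which made 12 of 45037 probe sets. Saa1 and Saa4 had 2 probe sets each and the other 8 genes had 1. The mice were between 92 and 101 days old, and 1 Affymetrix array was hybridised per liver. The labels give no treatment, no infection and no time of collection, and the kind of Mtap allele is not given in the sources used here. All levels are log2 signals after RMA (background correction, quantile normalization and probe summarisation), and all differences are heterozygous minus wild-type on that log2 scale, where 1 unit is a doubling of signal.

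Acute phase proteins are plasma proteins whose output by hepatocytes changes when inflammatory cytokines reach the liver. Interleukin-6 acts through its receptor, gp130 and STAT3, while interleukin-1 and tumour necrosis factor act through NF-kappaB, and transcription factors of the C/EBP family act at many of the same promoters. In mice Saa1 and Saa2, which travel on high-density lipoprotein, and Apcs (serum amyloid P, a pentraxin) are major responders. Saa3 is also made by macrophages and fat cells, and Saa4 is expressed constitutively. Lcn2 binds bacterial siderophores, Orm1 and Orm2 are the orosomucoids that bind drugs and lipids, Hp captures free haemoglobin and Hpx captures free haem.

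The promoters of 6 of these genes are shown because Saa1, Saa2, Lcn2 and Orm2 varied together from liver to liver, Saa3 did so in part, and Saa4, which lies between Saa3 and Saa1 on chromosome 7, did not. The windows run from 250 bases before to 50 bases after the start that the RefSeq table of assembly GRCm38.p6 gives, 5′ to 3′ on the gene's strand, and 8 of the 10 genes had one there. The capitals mark matches to the C/EBP motif TTNNGNAA on either strand, the sole motif of 3 searched that occurs in these 6 windows.

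Saa1 (chr7:46742931-46743230, minus strand): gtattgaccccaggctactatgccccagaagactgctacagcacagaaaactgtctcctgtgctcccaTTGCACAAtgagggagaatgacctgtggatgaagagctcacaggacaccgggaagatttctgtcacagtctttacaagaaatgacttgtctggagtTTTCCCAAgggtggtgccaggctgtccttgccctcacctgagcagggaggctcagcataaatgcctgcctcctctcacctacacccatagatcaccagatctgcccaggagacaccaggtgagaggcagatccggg
Saa2 (chr7:46751583-46751882, plus strand): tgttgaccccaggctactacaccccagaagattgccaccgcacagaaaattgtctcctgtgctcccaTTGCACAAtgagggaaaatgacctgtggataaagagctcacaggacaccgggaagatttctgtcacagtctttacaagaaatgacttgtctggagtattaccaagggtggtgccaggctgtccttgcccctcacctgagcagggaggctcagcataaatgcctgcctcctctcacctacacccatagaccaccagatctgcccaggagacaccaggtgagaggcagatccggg
Saa3 (chr7:46715627-46715926, minus strand): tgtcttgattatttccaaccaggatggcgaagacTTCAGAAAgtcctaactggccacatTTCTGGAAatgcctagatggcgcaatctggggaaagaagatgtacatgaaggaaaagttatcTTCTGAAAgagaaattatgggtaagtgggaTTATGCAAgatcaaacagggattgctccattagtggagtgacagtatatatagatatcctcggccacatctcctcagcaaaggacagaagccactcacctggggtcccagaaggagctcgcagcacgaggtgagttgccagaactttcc
Saa4 (chr7:46732554-46732853, minus strand): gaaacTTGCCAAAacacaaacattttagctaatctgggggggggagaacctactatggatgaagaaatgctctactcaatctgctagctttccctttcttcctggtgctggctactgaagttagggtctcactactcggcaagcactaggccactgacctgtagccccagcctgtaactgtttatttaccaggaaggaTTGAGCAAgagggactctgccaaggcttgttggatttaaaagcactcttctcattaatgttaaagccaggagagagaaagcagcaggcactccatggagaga
Lcn2 (chr2:32387690-32387989, minus strand): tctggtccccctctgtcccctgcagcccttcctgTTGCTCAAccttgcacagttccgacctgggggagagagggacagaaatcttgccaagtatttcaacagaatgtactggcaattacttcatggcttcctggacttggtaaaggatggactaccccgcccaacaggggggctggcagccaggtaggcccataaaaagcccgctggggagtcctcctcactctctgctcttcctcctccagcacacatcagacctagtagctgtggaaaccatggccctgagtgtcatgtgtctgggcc
Orm2 (chr4:63362199-63362498, plus strand): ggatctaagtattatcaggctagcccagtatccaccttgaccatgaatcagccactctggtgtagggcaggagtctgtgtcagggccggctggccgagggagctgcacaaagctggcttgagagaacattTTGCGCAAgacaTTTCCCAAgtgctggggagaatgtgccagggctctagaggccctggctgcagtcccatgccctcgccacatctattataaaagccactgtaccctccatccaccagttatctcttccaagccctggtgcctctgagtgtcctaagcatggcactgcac

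The Saa1 and Saa2 windows matched at 287 of 301 aligned positions (95.3%), whereas the Saa1 window matched that of Saa4 at 50.9% and that of Saa3 at 54.2%, which is near the level of unrelated pairs such as Lcn2 and Saa4 (48.3%). Every one of the 6 windows held a C/EBP match, but so did 40.7% of all 32851 windows of the table. Among the member windows not shown, that of Hpx held 2 such matches and that of Apcs held 0. Saa1 and Saa2 shared the match TTGCACAA, at -182 to -175 in Saa1 and at -183 to -176 in Saa2. Saa1 had a further match at -86 to -79 that Saa2 did not have, Saa3 had 4 matches, Saa4 and Orm2 had 2 each and Lcn2 had 1. The STAT motif TTCNNNGAA on either strand was found in the Apcs window alone among the 8 members with a window, against 8.30% of all windows. The NF-kappaB consensus was found in none of the 8 windows, against 8.46% of all. These matches describe the letters of the windows and do not show binding.

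The likeness of Saa1 and Saa2 also bears on the probe sets. The annotation names 1419075_s_at and 1450788_at for Saa1 and 1449326_x_at for Saa2, but the accession it pairs with 1419075_s_at is NM_011314, which RefSeq assigns to Saa2. The endings s_at and x_at mark probe sets that may bind several transcripts. The 3 probe sets are therefore reported apart, and how far each reads Saa1 or Saa2 alone was not tested.

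In the data as a whole, Mtap was lower in every heterozygous liver at all 4 of its probe sets, at 0.576, 0.499, 0.322 and 0.353 times the wild-type signal (limma adjusted p = 0.0314, 0.00443, 0.0414 and 0.0314). Array medians lay between 3.92 and 3.98. Hepatocyte markers were high in all 8 livers, with Alb between 14.38 and 14.52 and the mean of 11 markers between 12.44 and 12.69. On principal component 2 heterozygous livers had -44.1 (replicate 2) to -4.03 and wild-type livers 11.3 to 29.5. On component 1 heterozygous replicates 1, 3 and 4 and wild-type replicate 4 had -24.9 to -23.4, and the others 3.58 to 35.6. The 3′ minus 5′ signal of the actin and Gapdh control probes, which is higher in less intact RNA, was lowest in heterozygous replicate 2 (0.713). It was 1.10, 1.12 and 1.08 in heterozygous replicates 1, 3 and 4 and 0.880 to 1.04 in wild-type livers, with wild-type replicate 4 the highest of these. Nothing in the labels says whether mice of 1 genotype shared a litter, so the p-values cover the differences among these 8 livers alone. The SE, intervals and p-values of limma draw each probe set's variance toward that of all probe sets. For members of wide spread, such as Saa2 and Saa3, they therefore rest on a smaller variance than that of the livers themselves. Intervals from a member's own spread alone were not computed. In bulk liver, a difference in the number of cells of a type and a difference in RNA per cell cannot be told apart.

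Saa1 ranged widely within both genotypes. At 1450788_at heterozygous replicates 1 to 4 had levels of 10.11, 11.25, 13.21 and 13.30, and wild-type replicates 1 to 4 had 12.25, 9.19, 10.31 and 10.01. Heterozygous replicates 3 and 4 were the highest 2 livers, wild-type replicate 1 came next, and heterozygous replicate 1 lay among the other wild-type livers, so that the groups overlapped. The means were 11.97 ± 1.56 (SD, n = 4) and 10.44 ± 1.30 (SD, n = 4), a difference of 1.53 with a 95% interval of -0.17 to 3.23 (limma adjusted p = 0.637; exact two-sided permutation p = 0.2). The probe set 1419075_s_at ordered the 8 livers in the same way, from 8.96 in wild-type replicate 2 to 13.51 in heterozygous replicate 4. Its difference was 1.74 (95% interval -0.11 to 3.59, limma adjusted p = 0.621). At 1450788_at the difference was 1.09 when heterozygous replicate 4 was left out and 2.15 when heterozygous replicate 1 was.

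Saa2 showed the widest spread of the members. Its levels at 1449326_x_at were 7.67, 8.94, 12.14 and 12.97 in heterozygous replicates 1 to 4 and 10.49, 7.32, 7.74 and 7.20 in wild-type replicates 1 to 4. The highest heterozygous liver had 39.6 times the signal of the lowest, and among wild-type livers the factor was 9.81. The difference in means was 2.24 ± 1.12 (SE), a 4.74-fold difference with a 95% interval of 0.845 to 26.6-fold (limma adjusted p = 0.636; exact permutation p = 0.2 with 4 livers per genotype). Leaving out the same livers as for Saa1 gave 1.40 and 3.17. The mean difference thus did not stand out against the spread within genotypes, and the interval still covers differences of many-fold in the heterozygous direction.

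Saa3 was the 1 member whose groups did not overlap. Its levels at 1450826_a_at were 7.49, 8.37, 8.29 and 10.57 in heterozygous replicates 1 to 4 and 7.47, 7.09, 6.82 and 6.81 in wild-type replicates 1 to 4. All 4 heterozygous livers were above all 4 wild-type livers, although heterozygous replicate 1 exceeded wild-type replicate 1 only at the second decimal. The difference was 1.64 ± 0.52 (SE), with a 95% interval of 0.49 to 2.78, and it missed the threshold over all probe sets (limma adjusted p = 0.421, unadjusted p = 0.00965). The exact permutation p was 0.0286, the smallest that 4 against 4 livers can give. Heterozygous replicate 4 carried much of it, and without that liver the difference was 1.0 (limma adjusted p = 0.278). Without heterozygous replicate 2 it was 1.74 (limma adjusted p = 0.307).

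Saa4, the constitutive member, ranged less than the other Saa genes, more so at 1 of its probe sets than at the other. At 1419318_at the levels were 11.63, 11.86, 12.10 and 11.95 in heterozygous replicates 1 to 4 and 11.65, 12.05, 11.64 and 11.71 in wild-type replicates 1 to 4, a range of 1.39-fold over the 8 livers. Wild-type replicate 2, the lowest liver for Saa1, was the second highest for Saa4, and heterozygous replicate 1 was the lowest. The difference was 0.12 (95% interval -0.17 to 0.41, limma adjusted p = 0.856). At 1419319_at the levels ran from 9.92 to 10.61 in heterozygous and from 10.19 to 10.87 in wild-type livers, a range of 1.93-fold, with a difference of -0.08 (95% interval -0.48 to 0.32, limma adjusted p = 0.942). In fold terms these intervals run from 0.889 to 1.33 and from 0.718 to 1.25.

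**Figure D1:**
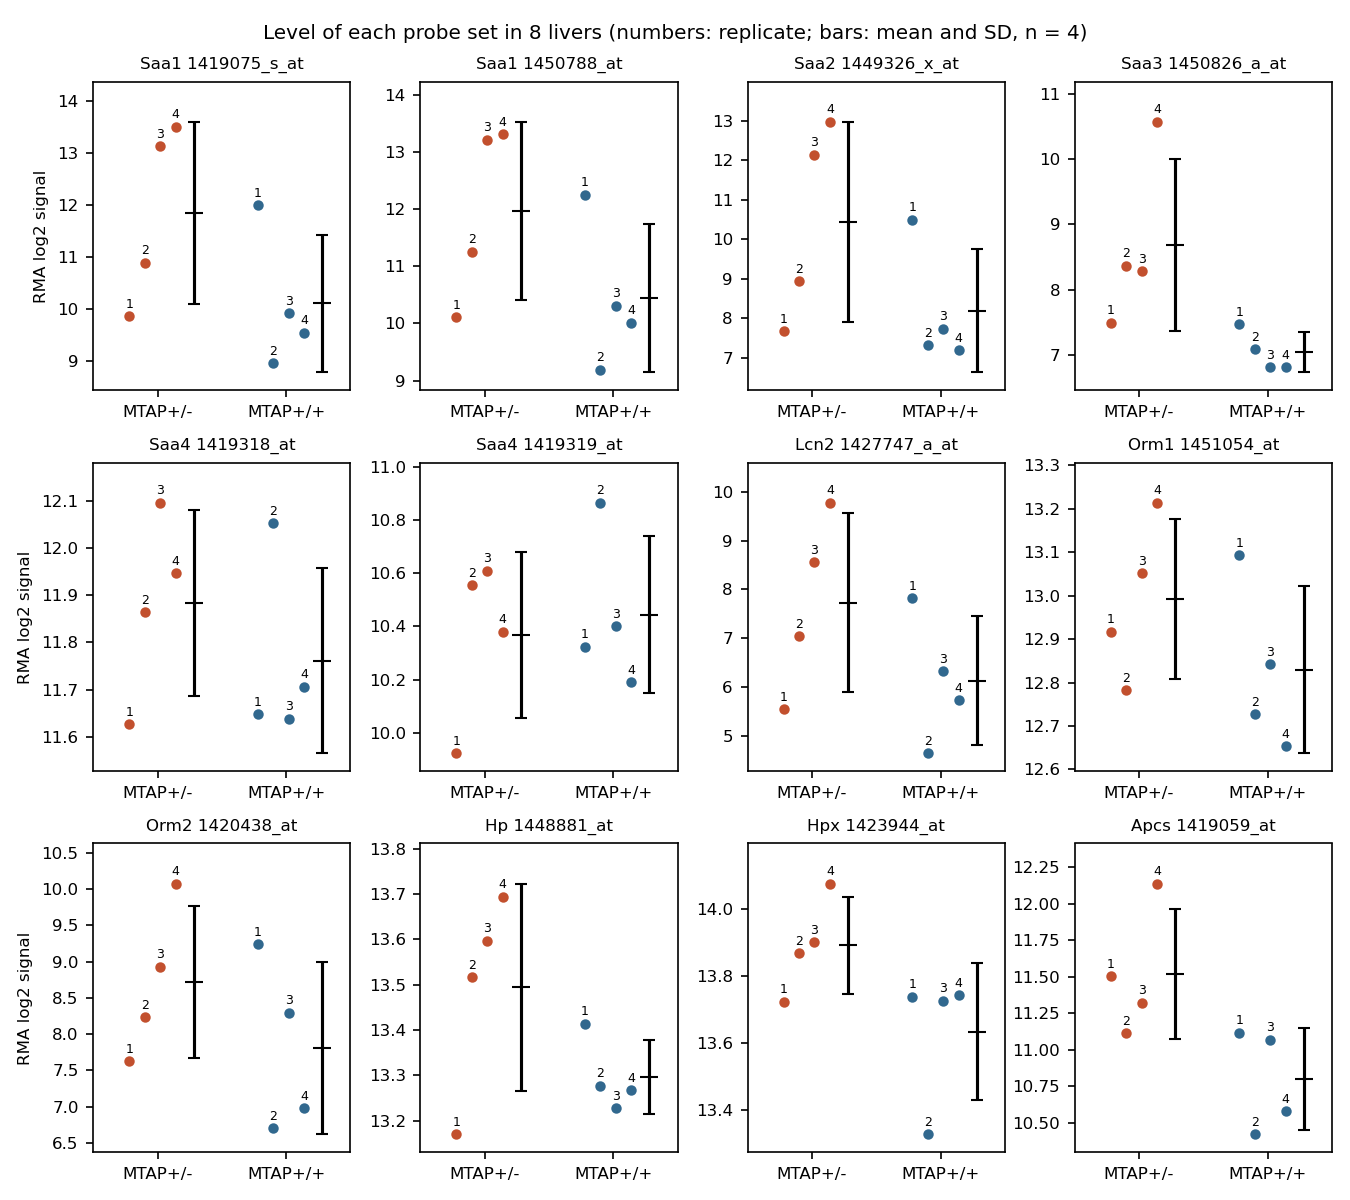
RMA log2 signal of the 12 probe sets (vertical axes, each panel with its own scale) in 4 heterozygous and 4 wild-type livers, with points numbered by replicate and bars for mean and SD. Heterozygous replicates 3 and 4 and wild-type replicate 1 are the highest 3 livers for Saa1, Saa2 and Lcn2, while the groups are apart for Saa3 alone.

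Lcn2, the siderophore binder, followed the order of Saa1 closely. Its levels at 1427747_a_at were 5.55, 7.04, 8.56 and 9.78 in heterozygous replicates 1 to 4 and 7.82, 4.64, 6.33 and 5.73 in wild-type replicates 1 to 4. The same 3 livers were highest as for Saa1 and Saa2. Wild-type replicate 2 was the lowest, as for Saa1, 35.1-fold under heterozygous replicate 4. The difference was 1.60 ± 0.86 (SE), a 3.03-fold difference with an interval of 0.812 to 11.3-fold (limma adjusted p = 0.668; exact permutation p = 0.229). It was 0.92 when heterozygous replicate 4 was left out and came to 2.16 when wild-type replicate 1 was.

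The orosomucoids differed from each other in how far they ranged. Orm2 at 1420438_at had levels of 7.62, 8.24, 8.93 and 10.08 in heterozygous replicates 1 to 4 and 9.24, 6.70, 8.30 and 6.98 in wild-type replicates 1 to 4. Wild-type replicate 1 was the second highest of all livers here, and wild-type replicates 2 and 4 the lowest, over a range of 10.4-fold. The mean difference was 0.91 (95% interval -0.42 to 2.25, limma adjusted p = 0.735), and leaving out heterozygous replicate 4 gave 0.46 and leaving out wild-type replicate 1 gave 1.39. Orm1 at 1451054_at lay between 12.78 and 13.21 in heterozygous and between 12.65 and 13.09 in wild-type livers, a range of 1.47-fold over all 8. Heterozygous replicate 4 and wild-type replicate 1 were highest for Orm1 too, and the difference was 0.16 (95% interval -0.12 to 0.45, limma adjusted p = 0.786). It was 0.09 when heterozygous replicate 4 was left out and 0.25 when wild-type replicate 1 was.

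Haptoglobin and hemopexin, which clear haemoglobin and haem from plasma, differed little. Hp at 1448881_at had levels of 13.17, 13.52, 13.60 and 13.69 in heterozygous replicates 1 to 4 and 13.41, 13.28, 13.23 and 13.27 in wild-type replicates 1 to 4. Heterozygous replicate 1 was the lowest of all livers and the other 3 heterozygous livers were the highest 3, so the groups overlapped through 1 liver. The difference was 0.20 (95% interval -0.07 to 0.47, limma adjusted p = 0.710), and leaving out heterozygous replicate 4 or 1 gave 0.13 or 0.31. Hpx at 1423944_at had levels of 13.72, 13.87, 13.90 and 14.08 in heterozygous and 13.74, 13.33, 13.73 and 13.74 in wild-type replicates 1 to 4, where wild-type replicate 2 was clearly below the rest. Its difference was 0.26 (95% interval -0.01 to 0.53, limma adjusted p = 0.620) and 0.16 without wild-type replicate 2. The mean signals of Orm1, Hp and Hpx were above those of 99.8%, 99.9% and 99.9% of probe sets, and signals near the top of an array are known to be compressed. How far this narrowed their differences was not tested.

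Apcs had the lowest limma p of the members. Its levels at 1419059_at were 11.51, 11.11, 11.32 and 12.14 in heterozygous replicates 1 to 4 and 11.12, 10.42, 11.07 and 10.58 in wild-type replicates 1 to 4. A single pair was out of order, with heterozygous replicate 2 at 11.11 and wild-type replicate 1 at 11.12, so 15 of 16 pairs of livers had the heterozygous one higher. The difference was 0.72 ± 0.23 (SE), a 1.65-fold difference with an interval of 1.17 to 2.34-fold, and it did not pass over all probe sets (limma adjusted p = 0.415, unadjusted p = 0.00919; exact permutation p = 0.0571). Without heterozygous replicate 4 it was 0.52 (limma adjusted p = 0.611), and without heterozygous replicate 2 it was 0.86 (limma adjusted p = 0.232).

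**Figure D2:**
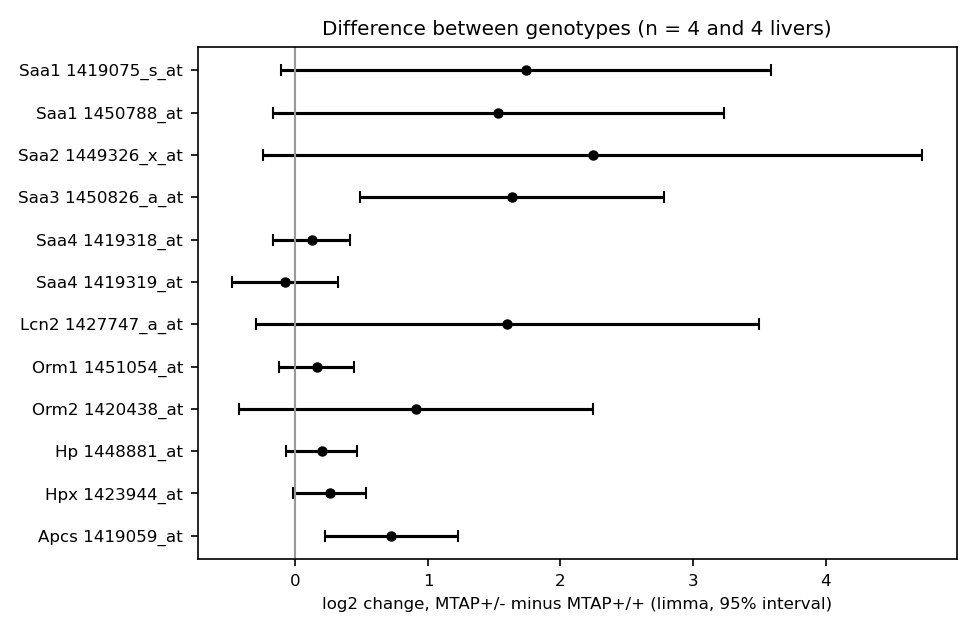
Difference between genotypes in log2 units (horizontal axis, heterozygous minus wild-type, n = 4 and 4 livers) for each probe set, with 95% intervals from limma before any adjustment over probe sets. Limma draws each variance toward that of all probe sets, and intervals from a member's own spread alone were not computed. The intervals of Saa3 (0.49 to 2.78) and Apcs (0.22 to 1.23) lie above 0 and the other 10 include 0.

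Counted together, 0 of the 12 probe sets passed the limma threshold of an adjusted p under 0.05, where 0.0355% of all probe sets passed. At an unadjusted limma p under 0.05, 2 of 12 were higher in heterozygous liver (Saa3 and Apcs) and 0 were lower, against 4.56% and 3.85% of all probe sets. The groups did not overlap at 1 of 12 with heterozygous higher and at 0 with heterozygous lower, against 2.12% and 2.22% of all. The mean was higher in heterozygous liver at 11 of 12 probe sets, against 47.3% of all, and higher by at least 1 log2 unit at 5 of 12 (Saa1 at both, Saa2, Saa3 and Lcn2), against 0.22% of all. None was lower by that much, against 0.104% of all. The median difference was 0.82, and -0.01 over all probe sets. These counts do not rest on separate evidence, because the Saa1 and Saa2 probe sets may share transcripts and because the same livers were high or low in most members. The members were also chosen with earlier results of these data known. The 5 probe sets had pooled SDs within genotypes of 0.96 to 2.10, against a median of 0.17 over all. With such a spread a mean difference of 1 unit is reached more readily than at most probe sets.

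The spread between livers of 1 genotype set most members apart from other probe sets. The pooled SD within genotypes was 2.10 for Saa2, and 1 of 45037 probe sets had a larger one. It was 1.60 for Lcn2 (11 probe sets larger), 1.56 and 1.43 for Saa1 (13 and 22 larger), 1.12 for Orm2 (54 larger) and 0.96 for Saa3 (96 larger). The median over all probe sets was 0.17. Apcs had 0.40, while Hp (0.17), Hpx (0.18), Orm1 (0.19) and Saa4 (0.20 and 0.30) lay closer to that median. Saa3 was uneven in this respect, with an SD of 1.32 in heterozygous and 0.31 in wild-type liver, where Saa1 had 1.56 and 1.30 at 1450788_at and Orm2 had 1.05 and 1.19.

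**Figure D3:**
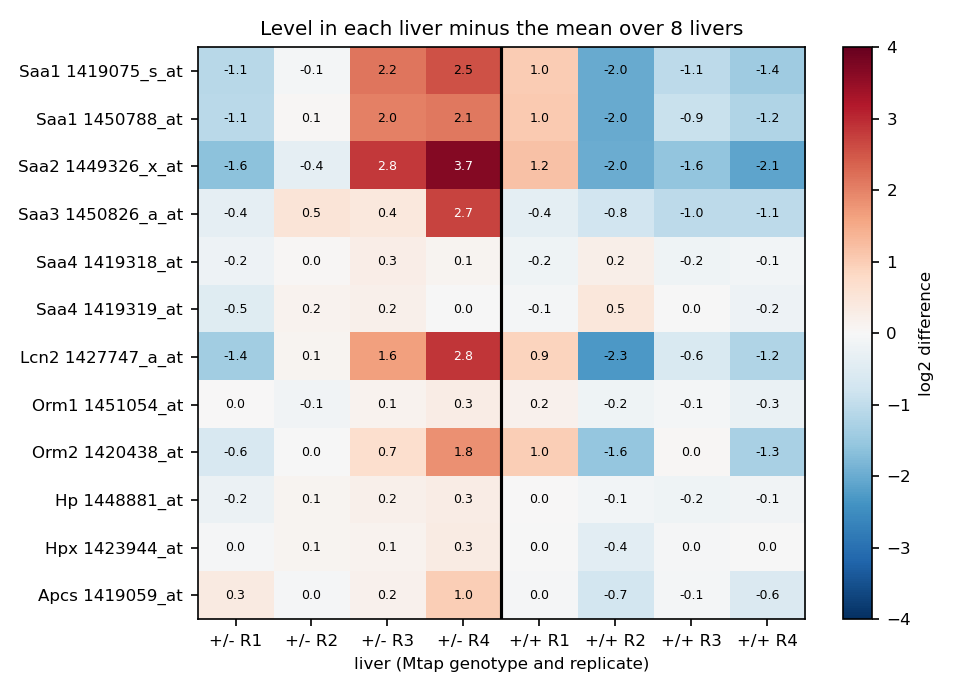
Level in each liver minus the mean of the 8 livers (colour and printed value, log2 units) for the 12 probe sets in rows, with heterozygous livers to the left and wild-type livers to the right of the line. Heterozygous replicates 3 and 4 and wild-type replicate 1 are above the mean for Saa1, Saa2, Lcn2 and Orm2, and heterozygous replicate 1 is below it with wild-type replicates 2 and 4.

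Saa1, Saa2, Lcn2 and Orm2 had a similar order of livers, which crossed the genotypes, while Saa3, Saa4 and Apcs followed it less closely or not at all. Over the 8 livers Pearson's r between Saa1 at 1450788_at and Lcn2 was 0.978 (Spearman's rho 0.976), with Saa2 0.975, with Orm2 0.921, with Hp 0.887 and with Orm1 0.863. It was 0.809 with Hpx, 0.759 with Saa3 and 0.723 with Apcs, but 0.32 and 0.05 with the 2 Saa4 probe sets. After each genotype's mean was subtracted, r with Saa1 was still 0.971 for Lcn2, 0.966 for Saa2 and 0.906 for Orm2, while it was 0.644 for Saa3 and 0.585 for Apcs. Without heterozygous replicates 3 and 4, the 2 livers farthest from the Saa1 median, r over the remaining 6 was 0.981 for Lcn2, 0.953 for Saa2 and 0.923 for Orm2, but 0.681 for Hp, 0.522 for Saa3 and 0.491 for Apcs. The relation of Saa1 to Saa3 and Apcs thus leaned on those 2 livers more than its relation to Lcn2 and Orm2 did.

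Among the 10 pairs formed by the Saa1, Saa2, Lcn2 and Orm2 probe sets, a grouping made after their values were seen, r lay between 0.901 and 0.996, and between 0.880 and 0.995 within genotypes. The Saa4 probe sets had r between -0.36 and 0.61 with the other members. All values of a liver come from 1 array, so shared RNA quality and normalization enter these correlations, which are given as descriptions. The mean of the 10 genes, each centred over the 8 livers, was -0.52, 0.04, 0.85 and 1.52 in heterozygous replicates 1 to 4 and 0.37, -0.99, -0.46 and -0.79 in wild-type replicates 1 to 4. This mean was not scaled by gene, so members of wide spread, such as Saa2, Lcn2 and Saa1, weigh most in it. Its r with the 3′ minus 5′ control signal was 0.256, and the part of RNA quality in this order was measured no further than by a covariate, with which 0 of the 12 probe sets passed and the Saa1 difference at 1450788_at was 1.44.

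**Figure D4:**
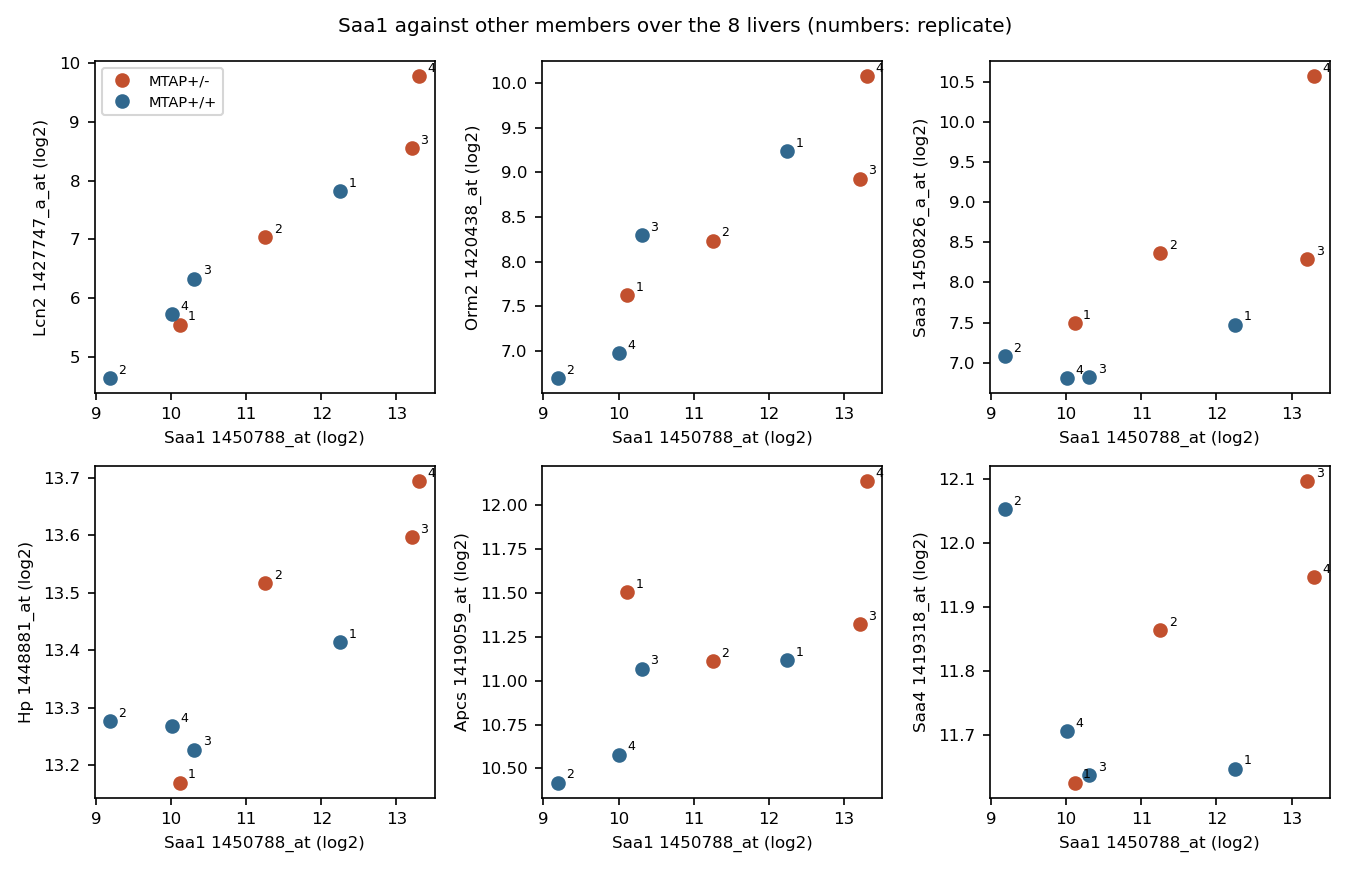
Log2 signal of Saa1 at 1450788_at (horizontal axes) against Lcn2, Orm2, Saa3, Hp, Apcs and Saa4 (vertical axes) in the 8 livers, coloured by genotype and numbered by replicate. Lcn2 (r = 0.978) and Orm2 (r = 0.921) follow Saa1 across both genotypes, and Saa4 (r = 0.32) does not.

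The genes outside the 10 with the most similar course were sought among 7004 genes with a mean log2 signal of at least 6, by r with that mean over the 8 livers. Among so many genes some reach a high r over 8 livers by chance, and how many was not tested. The highest were Fgl1, a secreted hepatocyte protein of the fibrinogen family (0.942), Tyrobp, a signalling adaptor of myeloid cells (0.904), and the kinase Pak2 (0.899). Next came the complement subunit C1qc (0.894), which is also among the Kupffer cell and macrophage markers read below. Irf1, a cytokine-induced transcription factor (0.885), and Ifi27l2a, an interferon-induced gene (0.876), followed. Fgl1 had levels of 11.38, 11.70, 12.07 and 12.44 in heterozygous and 11.38, 10.79, 11.04 and 11.09 in wild-type replicates 1 to 4. It was higher in all 4 heterozygous livers, the lowest of which was above wild-type replicate 1 by less than the second decimal shows, and its difference of 0.82 did not pass (limma adjusted p = 0.319). At the other end were Cblc (-0.935), Dus3l (-0.909), Camk2g (-0.893) and Apoc3, an apolipoprotein of triglyceride-rich particles (-0.888), whose levels moved within 13.58 to 13.74.

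The other genes of the acute phase pathway came from 7 lists, each read at the probe set of highest mean per gene. In none of these lists did a gene pass the limma threshold over all probe sets, where 0.0385% of genes read in this way passed. At an unadjusted limma p under 0.05, 4.47% of all genes were higher and 4.89% lower in heterozygous liver, which is the background for the counts that follow.

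Among cytokine ligands, 2 of 12 were higher at that level and 0 lower (median difference 0.05, against -0.02 over all genes). These were Il1b, at 6.10, 6.23, 6.21 and 5.90 in heterozygous and 5.46, 5.69, 5.91 and 5.84 in wild-type replicates 1 to 4 (difference 0.39, limma adjusted p = 0.423), and Il1a (0.49, limma adjusted p = 0.426). In Il1b the groups overlapped through heterozygous replicate 4, the liver highest in Saa1, and wild-type replicate 3. Il6 had a mean signal of 2.33, below every array median. Among receptors, 3 of 15 were higher and 0 lower (median 0.08), namely the pattern receptor Tlr2 (0.48), the oncostatin receptor Osmr (0.47) and the leukaemia inhibitory factor receptor Lifr (0.46), with limma adjusted p of 0.456, 0.487 and 0.570. Lifr had a mean signal of 10.6, whereas Tlr2 (4.07) was near the array medians and Osmr (3.69) below them.

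Signalling and transcription factors had 2 of 21 higher and 1 lower (median 0.05). Nfkbiz, an NF-kappaB cofactor, had levels of 5.25, 6.26, 6.66 and 7.44 in heterozygous and 4.07, 5.63, 4.12 and 4.03 in wild-type replicates 1 to 4 (difference 1.94 ± 0.46 SE, limma adjusted p = 0.260). Wild-type replicate 2, the lowest liver for Saa1, was the 1 wild-type liver that reached into the heterozygous range. Relb, an NF-kappaB subunit, was at 0.48 and Stat5b, which carries growth hormone signals, at -0.35 (limma adjusted p = 0.403 each). With the mean of the 10 genes over the 8 livers, this list had a median r of 0.20. Cebpd, which drives acute phase promoters, had an r of 0.62 (0.92 within genotypes) and a mean that was 0.12 lower in heterozygous liver (limma adjusted p = 0.915), and Stat3 had an r of 0.18 (0.01 within genotypes).

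Inhibitors of the signal had 3 of 17 higher and 1 lower (median 0.07). Socs3, the feedback inhibitor of gp130, was higher in all heterozygous livers, at 8.19, 6.33, 8.91 and 7.37 against 5.88, 6.16, 5.26 and 6.12 in wild-type replicates 1 to 4 (difference 1.84 ± 0.45 SE, limma adjusted p = 0.288). Its order within genotypes was not that of Saa1, since heterozygous replicate 1 was the second highest for Socs3 and the lowest heterozygous liver for Saa1, and its r with the mean of the 10 genes within genotypes was -0.0015. Tsc22d3, a glucocorticoid-induced leucine zipper protein, was at -0.74 (limma adjusted p = 0.472), Nfkbia at 0.28 (0.537) and Cish at 0.82 (0.576).

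Other positive acute phase proteins had 23 of 32 means higher, against 45.3% of all genes, with 6 higher and 0 lower at an unadjusted limma p under 0.05 (median 0.12). The groups did not overlap at 4 of 32, all with heterozygous higher, against 1.95% of all genes. These were Mt1 (3.15), Mt2 (2.52), Fgl1 (0.82) and the fibrinogen chain Fgg (0.14), of which the 2 metallothioneins, which bind zinc and copper, had limma adjusted p of 0.181 and 0.304. Mt1 had levels of 8.92, 10.67, 7.79 and 11.26 in heterozygous replicates 1 to 4 against 5.97 to 6.83 in wild-type. Heterozygous replicate 3, the second highest liver for Saa1, was the lowest heterozygous liver for Mt1. Steap4, a metalloreductase, was at 0.57 (limma adjusted p = 0.437).

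Most of these proteins did not closely follow the mean of the 10 genes. Of the 32, 3 had an r above 0.7 with their mean over the 8 livers, a limit set after the values were seen: Fgl1 (0.942), Itih4 (0.854) and Itih3 (0.760), the last 2 being heavy chains of inter-alpha-trypsin inhibitor. The median r was 0.32, and the share of all genes with an r above 0.7 was not computed. The pentraxin Crp had levels of 11.72, 11.66, 11.90 and 12.02 in heterozygous and 11.21, 11.12, 11.87 and 11.92 in wild-type replicates 1 to 4, with wild-type replicate 1 among the lowest livers and wild-type replicate 4 the second highest (r = 0.38). Serpina3n, an antiprotease often followed as an acute phase gene, ran from 8.96 to 10.16 with wild-type replicate 3 the second highest (r = 0.48, difference 0.16, limma adjusted p = 0.907). Hamp, which encodes the iron hormone hepcidin, had an r of -0.01 and a difference of 0.0003.

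Negative acute phase proteins, whose output is known to fall in inflammation, had 9 of 13 means higher and a median difference of 0.03. Apoa4 was at -1.15 ± 0.33 (SE, limma adjusted p = 0.375) and Serpina6, the corticosteroid carrier, at 0.70 ± 0.21 (SE, limma adjusted p = 0.395). Car3 was lower in all 4 heterozygous livers by a small amount (-0.14, limma adjusted p = 0.696), and Fetub was at 0.14. Alb and Ttr, the best known of this class, were at 0.03 and 0.02. Their mean signals were above those of 99.998% and 99.98% of probe sets, where signals may be compressed. How far this narrowed their differences was not tested. Rbp4, the retinol carrier, and Car3 had r of -0.77 and -0.73 with the mean of the 10 genes, and the highest r in this list was 0.42, for Igf1.

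Receptors and partners of the acute phase proteins had 2 of 16 higher and 0 lower at an unadjusted limma p under 0.05 (median -0.01). Abca1, which loads lipid onto apolipoproteins, was higher in all heterozygous livers (0.42, limma adjusted p = 0.423) and the scavenger receptor Cd36 was at 0.60 (0.396). Cd163, the macrophage receptor for haptoglobin bound to haemoglobin, was at -0.98 ± 0.50 (SE, limma adjusted p = 0.650), with heterozygous replicate 2 at 4.33 and the other 7 livers between 6.42 and 7.73. The protease Mmp9, which is also among the neutrophil markers, was at -0.26 (limma adjusted p = 0.667).

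**Figure D5:**
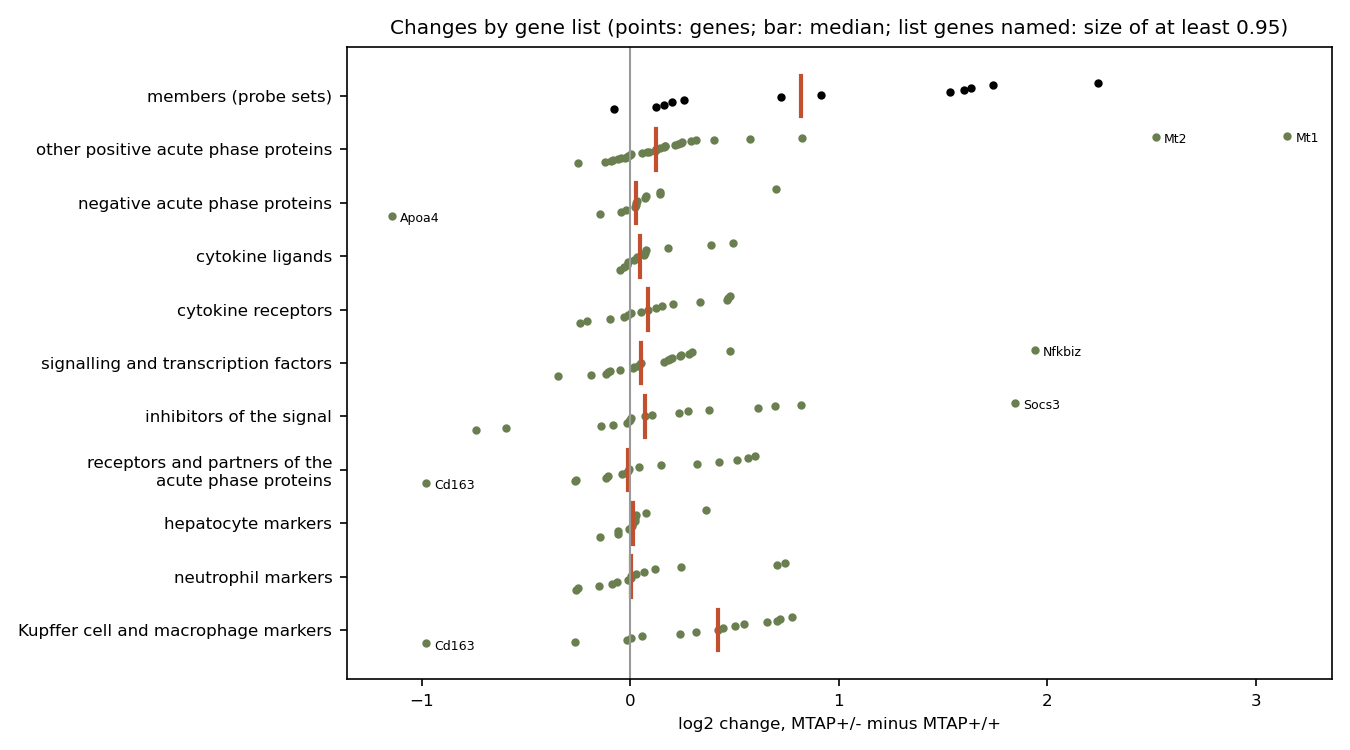
Difference between genotypes in log2 units (horizontal axis) for the 12 member probe sets and for the genes of 7 pathway lists and 3 marker lists (rows, each point 1 probe set, bar for the median). Members have a median of 0.82 and other positive acute phase proteins 0.12, with Mt1 (3.15) and Mt2 (2.52) farthest to the right.

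Markers of other cell types moved with the members to different degrees. Lcn2 is also stored in neutrophils, and of 14 neutrophil markers 8 had higher and 6 lower means in heterozygous liver, with 0 higher and 1 lower at an unadjusted limma p under 0.05. Their mean level ran from 4.56 to 4.95 in heterozygous and from 4.49 to 4.81 in wild-type livers. Over the 8 livers it had an r of 0.731 with Saa1 and 0.776 with the mean of the 10 genes. The single markers mostly did not follow the members, with a median r of 0.06 with the mean of the 10 genes. Above 0.7 were 2 of 14, S100a8 (0.855) and S100a9 (0.891), and the share of all genes above that limit was not computed. S100a9 stood at 5.03, 5.85, 5.87 and 7.66 in heterozygous and 5.69, 5.15, 5.49 and 5.12 in wild-type replicates 1 to 4, and S100a8 was likewise highest in heterozygous replicate 4 (6.45, against 3.78 to 4.99 in the other 7). Stfa2l1, the dimmest of the list, had a mean of 2.23, and Ngp, a neutrophil granule protein, lay between 3.84 and 4.37, near the array medians. The list also holds Lrg1, which hepatocytes express. The part of neutrophils in the Lcn2 levels was not tested.

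Kupffer cell and macrophage markers had 12 of 15 means higher, with 6 higher and 0 lower at an unadjusted limma p under 0.05 (median 0.42), and none passed (lowest limma adjusted p = 0.231, for Slc40a1 at 0.70). Their mean level was 8.21, 8.59, 8.33 and 8.68 in heterozygous and 8.25, 8.24, 8.19 and 8.03 in wild-type replicates 1 to 4, and its r with Saa1 was 0.624. Mpeg1, a macrophage perforin, was higher in all 4 heterozygous livers (0.65, limma adjusted p = 0.296). Monocyte markers had 6 of 7 higher (median 0.16), with Plac8 at 0.73 and mean levels of 4.39 to 4.83 in heterozygous and 4.17 to 4.49 in wild-type livers. Macrophages are known to express Saa3, and their part in the Saa3 levels was not tested. Hepatocyte markers were level (7 of 11 higher, median 0.01, mean levels of 12.50 to 12.69 and 12.44 to 12.68).

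Fat cells also express Saa3, Hp and Orm1. Adipoq, the defining fat cell marker, lay between 2.32 and 2.56 and Lep between 2.76 and 3.04 in all livers, below the array medians, and 3 of 7 fat cell markers had higher means (median -0.01, mean levels of 5.20 to 5.34 in heterozygous and 5.29 to 5.37 in wild-type livers). Of the remaining lists, T, B and NK cell markers had 9 of 10 higher (median 0.15), stellate cell markers 6 of 9 (0.07), endothelial markers 6 of 9 (0.03), erythroid markers 4 of 5 (0.09), cholangiocyte markers 2 of 6 (-0.09) and exocrine pancreas markers 3 of 8 (-0.03). No gene of these lists passed the limma threshold, and the lowest adjusted p was 0.257 for Rgs5, a pericyte gene at 0.65.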

How the data were processed

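Liver RNA of 8 mice was measured on 1 array each. The authors made the log2 signals with RMA before they deposited them, per the submitters' processing notes, which name no version or settings. The log2 scale itself was read from the range of values (1.64 to 14.7). Of 45101 probe sets, 64 controls were left out. Of the 45037 tested, 34945 have 1 gene symbol, 932 several and 9160 none, and 34741 were matched by gene ID to RefSeq, which changed 0 symbols.

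Genotypes were compared with limma 3.58.1 in R 4.3.3 (lmFit and eBayes, two-sided, genotype alone), adjusted by Benjamini-Hochberg over all probe sets at 0.05. The test was run on simulated data with independent normal noise of equal variance in both genotypes. That check does not cover probe sets that move together across livers, or a spread that differs by genotype as for Saa3. Single probe sets also had an exact permutation test over 70 assignments (SciPy 1.17.1), for which 0.0286 is the smallest p. All intervals are 95%.

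Named were every member, Mtap, up to 4 genes of smallest p per pathway list, up to 2 and the extremes per marker list, and the 6 most and 4 least similar genes. Crp, Serpina3n, Hamp, Cebpd, Stat3, Il6, Rbp4, Itih3, Itih4, Fgg, Alb, Ttr, S100a8, S100a9, Ngp, Lrg1, Igf1, Lep and Adipoq were added to these with their values known. The members and the 18 lists were chosen with earlier results of these data known. Alternatives were 2 gene-level fits, leaving out probe sets ending in s_at, x_at or a_at, renewed quantile normalization, median centring and a minimum mean of 5. Further ones were array weights, a trended robust eBayes, the replicate number as a block, a control-signal covariate, each liver left out, and a threshold of 0.1. The number of arrays limits the precision.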

Additional observations from a re-analysis of the deposited data

Results flagged for a closer look

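In 24 groups of 4 livers (12 probe sets in 2 genotypes), the highest or lowest liver stood far from the others in 3, by a criterion that chance meets in about 1 of 20 groups. Wild-type replicate 1 was high for Saa2 at 10.49, with the next wild-type liver at 7.74. Wild-type replicate 2 was high for Saa4 at 1419318_at, at 12.05 with the next liver at 11.71. The same liver was low for Hpx, at 13.33 with the next liver at 13.73.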

How the results depend on the processing

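Under every alternative run, 0 member probe sets and 0 genes of the 7 pathway lists passed at 0.05, nor did any pass at 0.1 in the fit reported. In the alternatives some pathway lists went under 0.1. The lowest limma adjusted p were 0.0530, for inhibitors of the signal with the control-signal covariate, and 0.0533, for negative acute phase proteins without wild-type replicate 4. The fit without probe sets ending in s_at, x_at or a_at held no Saa2, Saa3 or Lcn2 and lacked Saa1 at 1419075_s_at. The members' differences kept their direction in 206 of 208 values. The exception was Saa4 at 1419319_at, at 0.0704 when heterozygous replicate 1 was left out and 0.0626 when wild-type replicate 2 was, in a range of -0.16 to 0.07 when 1 liver was left out. The lowest adjusted p of any member was 0.232, for Apcs without heterozygous replicate 2. When 1 liver was left out, the difference ran from 1.40 to 3.17 for Saa2, from 1.0 to 2.03 for Saa3, from 0.92 to 2.33 for Lcn2 and from 0.46 to 1.39 for Orm2. Mtap at 1424425_a_at, at -0.80, missed the threshold with eBayes trend and robust settings (-0.80, adjusted p = 0.0544), with the replicate block (-0.80, adjusted p = 0.0802) and when any 1 liver was left out (-0.84 to -0.74). Its other 3 probe sets passed with the trend and robust settings and with the block. When 1 liver was left out, 1424426_at passed in 8 of 8 fits and 1451345_at and 1451346_at in 2 of 8 each. Same-numbered livers deviated together by r of -0.07 to 0.23. Differently numbered livers were not compared, so these values cannot tell whether the numbers pair the samples. The replicate block moved the count over all probe sets from 16 to 25 and changed no call of a member, a pathway list or another Mtap probe set. With the control-signal covariate that count was 42.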
